A study of Homo sapiens with 6 samples.

Results

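The 48 nuclear genes described here encode proteins that copy, transcribe, process, degrade and translate the mitochondrial genome, together with the nuclear factors that control such genes. They were taken as a fixed list of symbols by role, with no threshold on their values, but with earlier results of these data known. All 48 were matched to an Ensembl gene among the 60671 genes of the count table. Each line, A549, HCC827 and H1975, gave 1 library with the solvent DMSO and 1 with AL-X, after 48 h. AL-X is the compound that the labels call 9α,11αOH-KA, and its dose was 10 µg/mL. The 3 lines are human non-small cell lung cancer lines, and the labels give the genotype of all of them as WT. Of 6 epithelial markers, the keratins KRT7, KRT8 and KRT18 were at 362 CPM (counts per 1000000 counts, after scaling) or more in every library. EPCAM, CDH1 and KRT19 were at 189 CPM or more in HCC827 and H1975. In A549, EPCAM had 2.63 CPM with DMSO and 1.46 with AL-X, KRT19 4.93 and 4.60, and CDH1 206 and 15.6. Of 8 markers of other cell types, PTPRC and CD3E had 0 counts in every library, COL1A1 had 1.17 to 15.98 CPM, ACTA2 0.704 to 7.78 CPM, and the other 4 at most 2.45 CPM. Their summed level was 14.3 CPM with DMSO and 4.14 with AL-X in A549, 20.5 and 7.48 in HCC827, and 21.2 and 13.1 in H1975, and their part in the results was not tested.

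Mitochondria keep a small circular genome (mtDNA) whose transcripts are made by a dedicated polymerase, POLRMT, with the packaging and initiation factor TFAM and the initiation factor TFB2M. The long transcripts are cut apart at their tRNAs, given poly(A) tails, held by RNA-binding proteins such as LRPPRC with SLIRP, and removed by the PNPT1 and SUPV3L1 degradosome. All these proteins are made in the cytosol from nuclear genes. Their transcription is classically tied to the factors NRF1 (nuclear respiratory factor 1, not the NFE2L1 gene product) and GABPA and to the PGC-1 coactivators PPARGC1A, PPARGC1B and PPRC1.

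Transcripts of the mitochondrial genome itself took a far smaller share of counts with AL-X in all 3 lines. Genes of the mitochondrial genome took 6.41% to 6.87% of counts in the DMSO libraries, and 0.0201%, 0.656% and 0.0535% with AL-X in A549, HCC827 and H1975. The ribosomal RNA gene MT-RNR1 was not lower in HCC827, with 1221 CPM with DMSO and 1364 with AL-X. Library totals lay between 98139178 and 126840915 counts. CPM values are scaled by TMM (trimmed mean of M values), and folds within a line are log2 values of AL-X over DMSO with a prior count of 2. The A549 AL-X library stood apart, with a TMM factor of 0.557 against 0.903 to 1.27 in the others. If library totals are used instead, every fold moves by -1.01 in A549, 0.13 in HCC827 and -0.41 in H1975, and directions below are relative to TMM unless stated. With 1 library per line and treatment a fold within a line has no replicate check and no test. In bulk RNA, fewer cells of a kind and less RNA per cell cannot be told apart.

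Promoters with matches to the NRF1 or GABPA motif are shown for TFAM, TFB2M and the TFB2M paralog TFB1M, whose AL-X levels diverged in A549, and for GABPA itself. The windows run from 250 bases before to 50 after the RefSeq gene start, build GRCh38.p14, written 5′ to 3′ on the gene's strand. Capitals mark matches to the NRF1 motif GCGCANGCG or to the GABPA (ETS) motif CCGGAAG on either strand.
TFAM, chr10:58385160-58385459, plus strand, 1 NRF1 match: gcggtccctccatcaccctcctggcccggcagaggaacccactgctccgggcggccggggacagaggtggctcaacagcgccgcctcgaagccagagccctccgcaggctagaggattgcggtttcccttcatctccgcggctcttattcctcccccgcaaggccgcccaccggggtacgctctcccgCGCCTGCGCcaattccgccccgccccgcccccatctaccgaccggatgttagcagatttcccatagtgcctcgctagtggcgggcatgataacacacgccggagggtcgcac
TFB2M, chr1:246566212-246566511, minus strand, 1 NRF1 match: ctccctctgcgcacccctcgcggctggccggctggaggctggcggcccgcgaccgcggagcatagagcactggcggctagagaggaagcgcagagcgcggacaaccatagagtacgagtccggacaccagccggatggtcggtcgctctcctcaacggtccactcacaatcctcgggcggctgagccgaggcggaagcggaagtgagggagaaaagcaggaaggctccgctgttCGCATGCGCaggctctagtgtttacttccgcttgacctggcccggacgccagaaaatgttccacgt
TFB1M, chr6:155314435-155314734, minus strand, 2 overlapping NRF1 matches and 1 GABPA match: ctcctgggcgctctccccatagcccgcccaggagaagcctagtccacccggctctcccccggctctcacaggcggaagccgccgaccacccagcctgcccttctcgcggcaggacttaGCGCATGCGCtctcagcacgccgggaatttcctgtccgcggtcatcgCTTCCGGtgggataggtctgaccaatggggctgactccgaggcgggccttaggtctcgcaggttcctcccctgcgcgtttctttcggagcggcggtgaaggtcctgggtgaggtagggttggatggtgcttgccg
GABPA, chr21:25734722-25735021, plus strand, 1 GABPA match: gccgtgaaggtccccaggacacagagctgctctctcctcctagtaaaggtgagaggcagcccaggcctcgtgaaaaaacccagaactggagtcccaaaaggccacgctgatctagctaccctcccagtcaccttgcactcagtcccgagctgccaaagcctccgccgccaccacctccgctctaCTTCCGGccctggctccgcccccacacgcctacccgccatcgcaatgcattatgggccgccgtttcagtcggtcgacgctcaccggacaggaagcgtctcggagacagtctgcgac

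Among the 43 members with a promoter in the RefSeq table, 19 (44.2%) held the GABPA motif, against 10.3% of all 35116 promoters of this length and 15.9% of those of protein-coding genes tested here. The NRF1 motif was found in 8 (18.6%), against 7.52% and 11.8%. FASTKD5, MTERF3, NRF1, TOP1MT and TWNK had no entry. Members with a motif were found on both sides of 0. In A549 the 19 genes with the GABPA motif had a median log2 fold of 0.94 and the 24 without it 0.23, in HCC827 -0.055 and -0.36, and in H1975 -0.24 and -0.080. For the NRF1 motif the medians were 1.25 with and 0.25 without in A549, -0.53 and -0.17 in HCC827, and -0.25 and 0.0015 in H1975. TFAM and TFB2M, each with 1 NRF1 match, and TFB1M, whose window holds both motifs, differed in direction in A549. The MYC E-box CACGTG was in 3 members (6.98%, against 7.26% of all promoters and 9.11% of those of tested protein-coding genes) and the estrogen-related receptor motif AAGGTCA in 3 (6.98%, against 3.92% and 2.81%). The ATF4-C/EBP motif TGATGNAA was in 1 (2.33%, against 3.62% and 2.11%) and the cyclic AMP element TGACGTCA in 2 (4.65%, against 1.85% and 2.65%). All were searched on both strands. These are letter matches in a window, not measured binding.

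With DMSO, the 48 genes formed a graded set that was similar in the 3 lines. Per kilobase of merged exons, TUFM, the mitochondrial elongation factor that carries tRNAs to the ribosome, was the highest at 95.8 ± 13.1 CPM per kb (SD, n = 3 lines). HSD17B10, a subunit of mitochondrial RNase P, followed at 31.3 ± 4.49 and LRPPRC at 29.4 ± 7.74, a pair that did not differ beyond its spread. TFAM lay at 12.9 ± 0.98, POLRMT at 12.02 ± 2.78, TFB2M at 10.2 ± 1.94 and TEFM, the elongation factor of the polymerase, at 1.88 ± 0.0518 CPM per kb. Of these transcription genes only TEFM lay outside the spread of the other 3. PPARGC1A, the coactivator most tied to mitochondrial biogenesis, was the exception among lines. It had 3212 counts in A549, 5 in HCC827 and 0 in H1975, where a floor of 3 counts allows up to 0.0239 CPM. The next widest spreads between lines were those of MTERF2 (highest line 3.30 times the lowest), TFB1M (2.98 times) and MTERF1 (2.44 times).

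**Figure D1:**
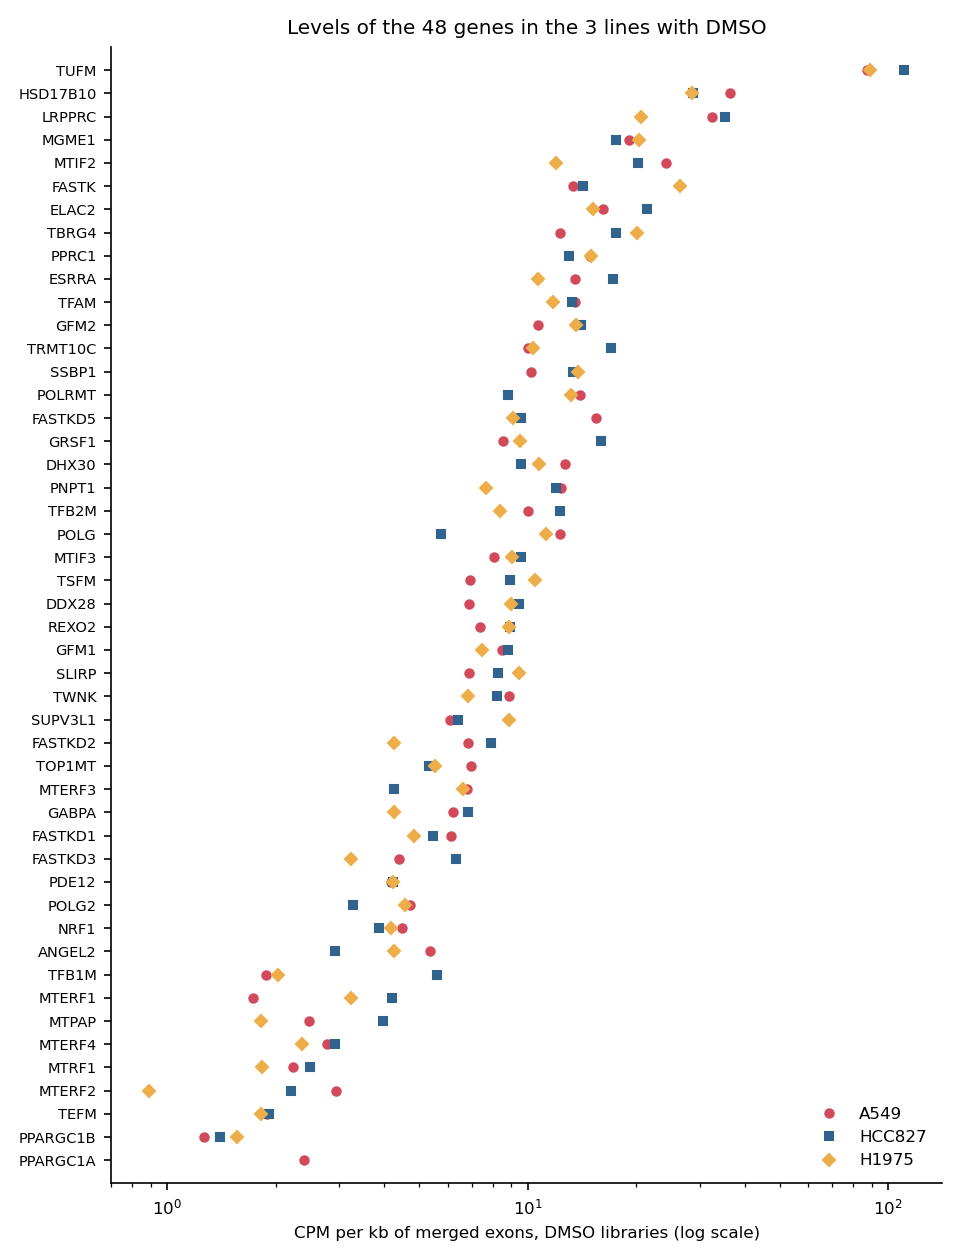
CPM per kilobase of merged exons (log axis) of each of the 48 genes in the DMSO libraries of the 3 lines, 1 point per library, ordered by the mean. TUFM stands highest at 95.8 on average, and PPARGC1A is drawn for A549 alone because the other lines had 5 and 0 counts.

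The across-line comparison asks whether AL-X moved these genes the same way in all 3 lines. It used 47 members, all but PPARGC1A, whose counts were too low outside A549. No member passed the edgeR quasi-likelihood test with the line as a block (Benjamini-Hochberg adjusted p under 0.05), where 0.256% of the 20344 genes tested were called, and the lowest adjusted p of a member was 0.208. At unadjusted p under 0.05 there were 5 of 47 members (10.6%), against 15.7% of all genes tested. DESeq2 called 2 (4.26%), DDX28 lower and GABPA higher, against 9.76% of all genes. The median across-line log2 fold was 0.011 over the members and -0.27 over all genes tested, with 25 members above 0 and 22 below. The 3 lines gave the same sign for 19 members (40.4%, 12 lower and 7 higher), and 42.2% of all genes tested did so. The AL-X and DMSO libraries did not overlap in CPM for 5 members (10.6%), SUPV3L1, FASTKD2, NRF1, GABPA and PPARGC1B, against 17.4% of all genes. Whether the members differ from all genes in these shares was not tested.

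Taken line by line, the members differed in number and direction. A member counted as higher or lower if its level differed by 2-fold or more, and if the larger of its 2 levels reached 5 CPM. In A549 20 of 48 members were higher (41.7%, against 30.1% of all genes considered) and 9 lower (18.8%, against 31.6%). In HCC827 only POLG was higher (2.13% of 47, against 10.7%) and 6 were lower (12.8%, against 17.3%). In H1975 3 of 46 were higher (6.52%, against 15.4%) and 5 lower (10.9%, against 17.8%). The members' median log2 fold in A549 was 0.43, and it was -0.19 in each of the other lines. Over all genes considered it was -0.0052, -0.043 and 0.063 in A549, HCC827 and H1975. With library totals the split in A549 turned to 8 higher and 20 lower (12.7% and 52.0% of all genes), and that in H1975 to 1 and 14 (6.90% and 28.2%). Members with a fold above 0 numbered 28 of 48, 16 of 47 and 21 of 46 in A549, HCC827 and H1975 under TMM. They numbered 20, 21 and 16 under library totals, so the sign of small folds depends on the scaling. Of all genes considered, 49.9%, 48.0% and 52.4% were above 0 under TMM, and 28.4%, 54.0% and 35.3% under library totals. The raw share of counts that fell on the 48 genes differed little. The share was 0.258% with DMSO and 0.272% with AL-X in A549, 0.284% and 0.260% in HCC827, and 0.255% and 0.256% in H1975.

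**Figure D2:**
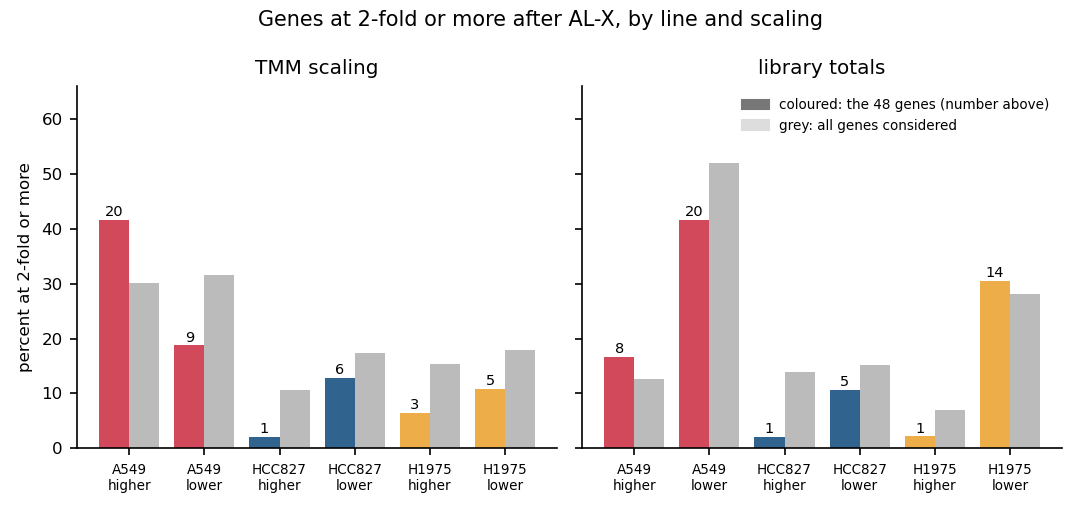
Percent of the members considered (coloured bars, with their number above) and of all genes considered (grey bars) that were at least 2-fold higher or lower with AL-X in each line, under TMM scaling and under library totals. In A549 20 members were higher under TMM and 8 under library totals, while HCC827 had 1 higher under both.

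No member was at least 2-fold higher in all 3 lines, and none lower, against 1.99% and 2.57% of the 13710 genes that reached 5 CPM in at least 1 line. No line reached 2-fold for 13 members (27.1%, against 27.8% of those genes). A549 alone did for 20 (41.7%, against 27.1%), HCC827 alone for 4 (8.33%, against 9.39%) and H1975 alone for 2 (4.17%, against 6.75%). A549 and H1975 were called in the same direction for 5 members (10.4%, against 19.0%), GABPA, MTERF3 and SLIRP higher and DDX28 and MTIF3 lower. PDE12 was called higher in A549 and lower in H1975 (1 member, 2.08%, against 3.82% with opposite calls). Across the members, which are not independent replicates and share 1 library pair per line, the folds of A549 and H1975 had a Spearman rho of 0.504 (46 genes), against 0.717 over all genes that reached 5 CPM in both lines. Those of A549 and HCC827 had 0.198 (47 genes), against 0.291, and those of HCC827 and H1975 0.0471 (46 genes), against 0.237. Whether HCC827 differed from the mean of the other lines was put to an edgeR interaction test. No member passed (lowest adjusted p = 0.50, 0.261% of all genes called), and 3 of 47 were under an unadjusted p of 0.05 (6.38%, against 8.19%), namely DDX28, GABPA and SSBP1.

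**Figure D3:**
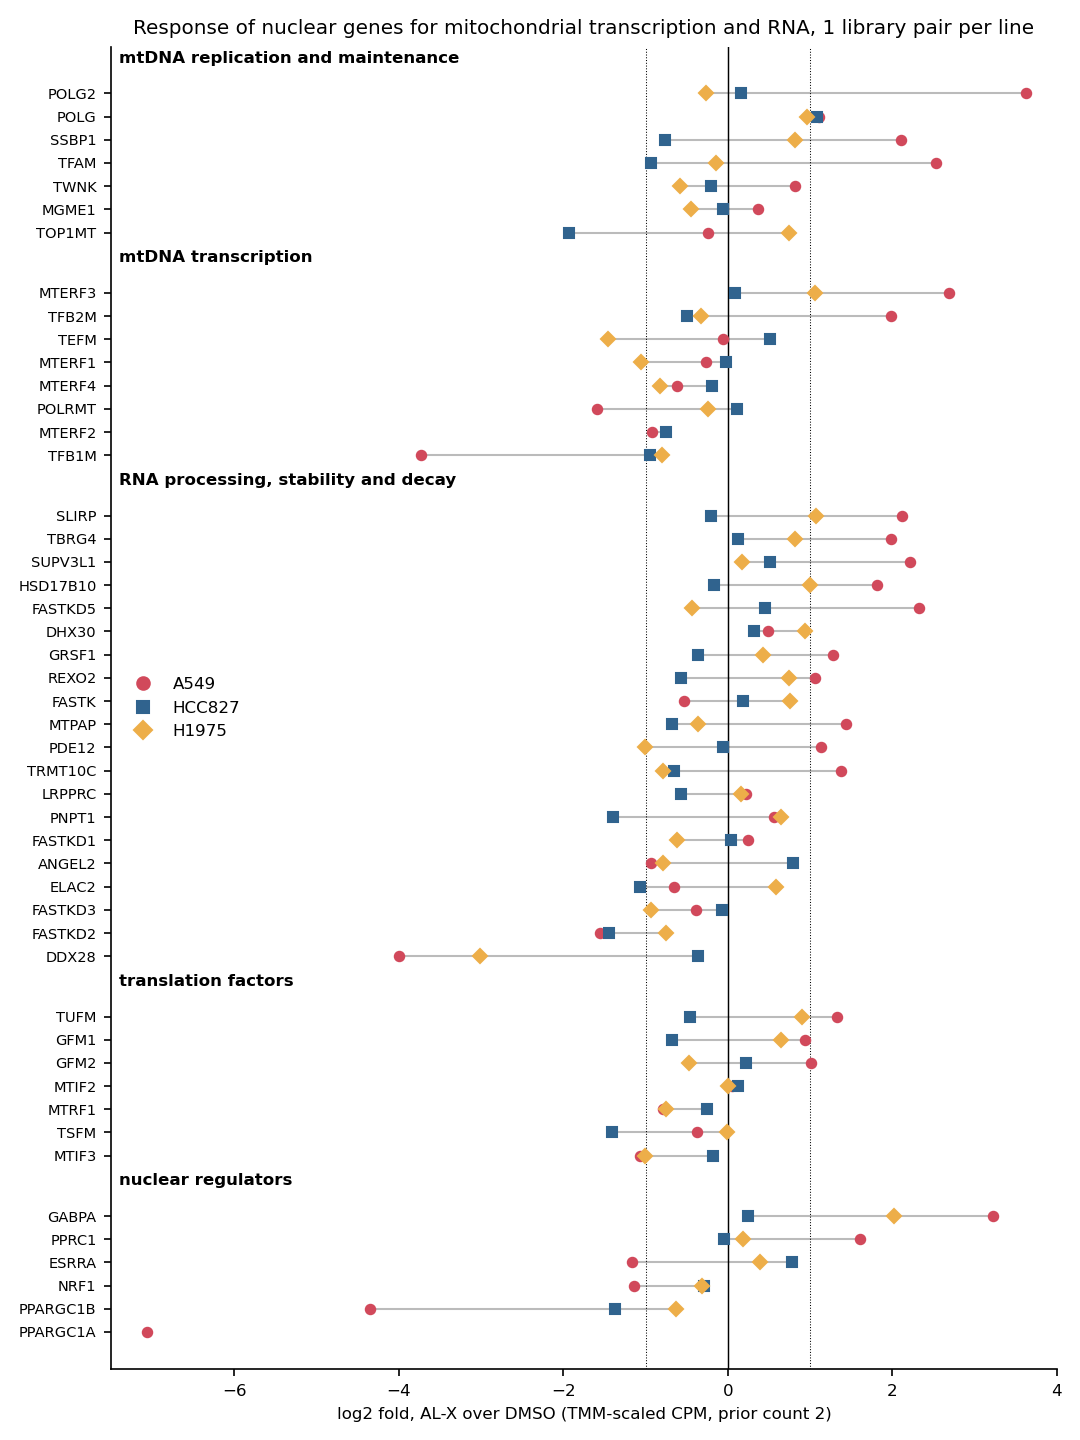
Log2 fold of AL-X over DMSO in each line for the members that reached 5 CPM in that line, grouped by role and ordered by the mean of the 3 folds. Each point is 1 library pair, the grey bar joins the lines, and the dotted lines mark 2-fold; A549 reaches from -7.06 (PPARGC1A) to 3.63 (POLG2).

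In the group of 7 genes for mtDNA replication and maintenance, 4 were at least 2-fold higher in A549 (30.1% of all genes considered were), 1 in HCC827 (10.7%) and none in H1975 (15.4%). None was lower in A549 (31.6%) or H1975 (17.8%), and TOP1MT was lower in HCC827 (17.3%). POLG (ENSG00000140521, GRCh38 chromosome 15, 89305198 to 89334861), the catalytic subunit of the mtDNA polymerase, had 73.5 CPM with DMSO and 158 with AL-X in A549, 34.4 and 72.8 in HCC827, and 67.3 and 131 in H1975. It was higher in each line by a similar amount, although its AL-X level in HCC827 lay just under the DMSO level of A549. Its across-line log2 fold was 1.05 (SE 0.45, adjusted p = 0.295), and 1.07 without A549. With library totals the fold in A549 was 0.10, while HCC827 had 1.21 and H1975 0.56. POLG overlaps the opposite-strand gene FANCI over 7.7% of its exons, and since the strand setting of the counts is not given, such reads cannot be told apart.

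The accessory subunit POLG2 was at least 2-fold higher in A549 alone, from 16.0 to 198 CPM, against 11.1 and 12.4 in HCC827 and 15.5 and 12.9 in H1975. TFAM (ENSG00000108064, chromosome 10, 58385022 to 58399221) had nearly the same DMSO level in the 3 lines, 76.1 CPM in A549, 74.3 in HCC827 and 65.8 in H1975, and with AL-X 439, 39.0 and 59.5. It was thus higher in A549 (2.53), lower in HCC827 (-0.93) and close to its DMSO level in H1975 (-0.15), and its across-line log2 fold of 0.41 (SE 0.70, adjusted p = 0.787) became -0.49 without A549. SSBP1, which coats single-stranded mtDNA, went from 50.9 to 220 CPM in A549, 66.7 to 39.2 in HCC827 and 68.6 to 121 in H1975. Its HCC827 fold lay 2.22 log2 units under the mean of the other lines (SE 1.11, edgeR adjusted p = 0.599). TOP1MT, the mitochondrial topoisomerase, had 44.7 and 37.8 CPM in A549, 34.4 and 9.02 in HCC827, and 35.7 and 59.7 in H1975, so that HCC827 was low. The helicase TWNK (0.82, -0.20 and -0.58) and the nuclease MGME1 (0.37, -0.062 and -0.45) stayed under 2-fold in every line.

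The core of mitochondrial transcription did not move as a unit. POLRMT (ENSG00000099821, chromosome 19, 617224 to 633604) had 71.8 CPM with DMSO and 23.9 with AL-X in A549, 45.3 and 48.8 in HCC827, and 67.7 and 57.5 in H1975. A549 was low with AL-X, at a log2 fold of -1.59 (exact binomial 95% interval for counting error -1.67 to -1.51), and in the other lines the fold was 0.11 and -0.24. TFB2M (ENSG00000162851, chromosome 1, 246540560 to 246566324), which opens the promoter for POLRMT, went the other way in A549, from 18.6 to 73.3 CPM, with 22.7 and 16.1 in HCC827 and 15.5 and 12.3 in H1975. Its across-line log2 fold was 0.34 (SE 0.63, adjusted p = 0.806), and -0.058 with library totals. The paralog TFB1M (ENSG00000029639, chromosome 6, 155257509 to 155314493), a methyltransferase of the small ribosomal RNA, was below its DMSO level in all lines. It had 5.14 and 0.369 CPM in A549 (634 and 25 counts), 15.3 and 7.95 in HCC827, and 5.57 and 3.19 in H1975, with an across-line log2 fold of -1.76 (SE 0.87, adjusted p = 0.347) and -0.83 without A549. The opposite-strand gene TIAM2 covers 7.9% of the TFB1M exons and was lower too. TIAM2 had 327 and 53 counts in A549, 816 and 586 in HCC827, and 1674 and 1049 in H1975. Its part in the TFB1M counts was not tested.

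TEFM had 6.12 and 5.90 CPM in A549, 6.19 and 8.88 in HCC827, and 5.87 and 2.12 in H1975, where alone it was at least 2-fold lower. Among the 4 MTERF proteins, a family that binds mtDNA or ribosomal RNA, MTERF3 stood against the rest. It had 12.2 and 79.2 CPM in A549, 7.67 and 8.14 in HCC827 and 11.9 and 24.9 in H1975 (across-line log2 fold 1.26, SE 0.63, adjusted p = 0.352, and 0.62 without A549). MTERF1 (-0.26, -0.024 and -1.05), MTERF2 (-0.93, -0.76 and -2.12) and MTERF4 (-0.62, -0.19 and -0.82 in A549, HCC827 and H1975) were below 0 in every line. MTERF2 was under 5 CPM in H1975 and is not counted there. MTERF4 shares 51% of its merged exonic length with the opposite-strand gene SNED1, and MTERF2 11.6% with TMEM263. TEFM shares 16.8% with the opposite-strand gene AC130324.3, which had at most 14 counts. It also shares 9.3% with the opposite-strand gene ADAP2. ADAP2 had 345 counts with DMSO and 35 with AL-X in A549, 964 and 866 in HCC827, and 110 and 32 in H1975. The part of ADAP2 in the TEFM counts was not tested.

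**Figure D4:**
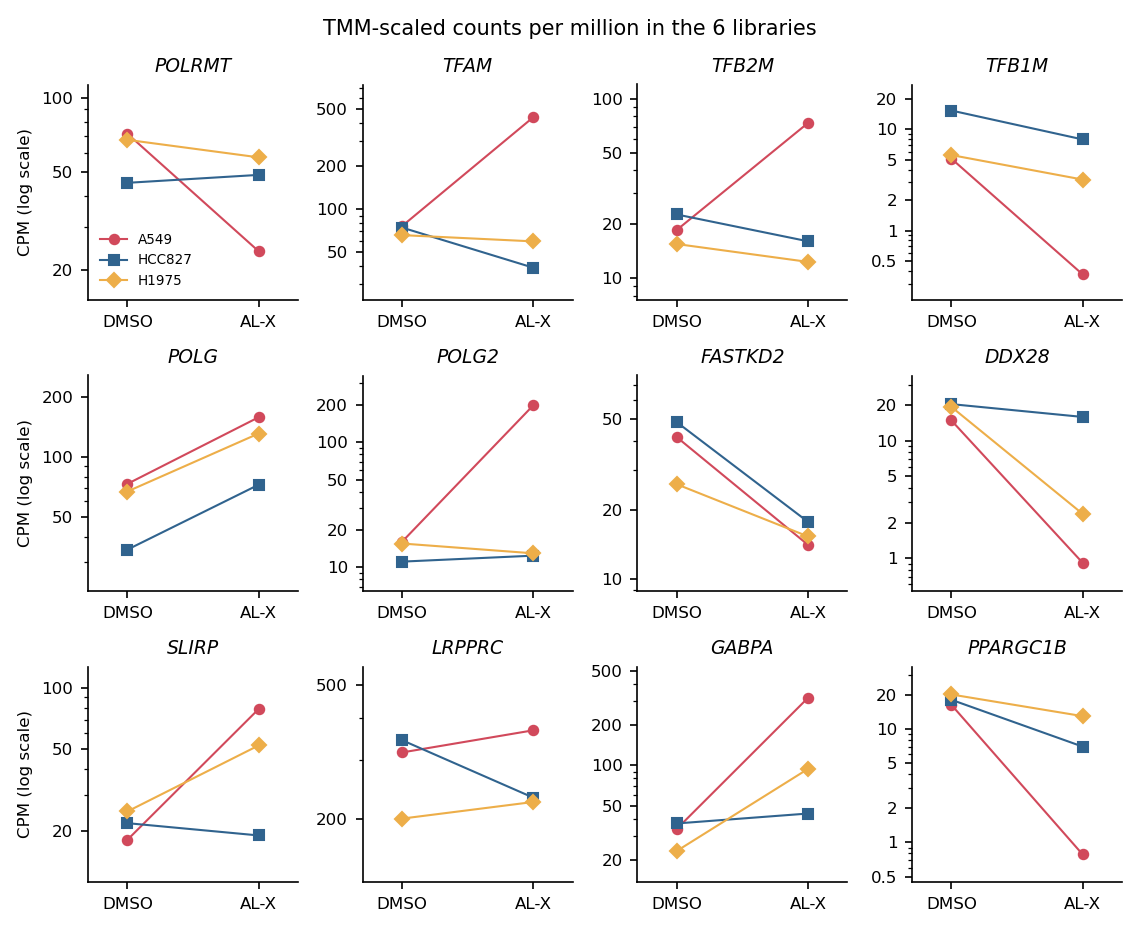
TMM-scaled CPM (log axis, scaled per panel) of 12 members in the DMSO and AL-X libraries, with a line joining the 2 libraries of a cell line. The A549 lines of TFAM, TFB2M and POLG2 climb while those of POLRMT, TFB1M and PPARGC1B descend, and POLG climbs and FASTKD2 descends in each line.

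Ratios between partner genes within a library do not depend on scaling. The 12 pairs below were chosen for shared complexes, opposed functions or kinship, with the values already known, and intervals are 95% for counting error only. The count ratio of TFB2M to POLRMT went from 0.259 to 3.07 in A549 (11.9-fold, log2 difference 3.57, interval 3.47 to 3.68), but its log2 difference was -0.60 in HCC827 and -0.095 in H1975. That of TFAM to POLRMT went from 1.06 to 18.4 in A549 (log2 difference 4.12, 4.03 to 4.20), 1.64 to 0.799 in HCC827 and 0.972 to 1.04 in H1975. TFB2M to TFB1M differed by 5.78 in A549, 0.45 in HCC827 and 0.47 in H1975. POLG2 to POLG was 5.75-fold higher in A549 and 1.89-fold and 2.34-fold lower in HCC827 and H1975.

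Pairs whose ratio shifted the same way in all 3 lines were SLIRP to LRPPRC (log2 difference 1.91, 0.37 and 0.91 in A549, HCC827 and H1975), HSD17B10 to TRMT10C (0.45, 0.49 and 1.79), TFB2M to TFB1M, TSFM to TUFM (-1.70, -0.95 and -0.92) and PPARGC1B to PPRC1 (-5.99, -1.32 and -0.82). In each of these pairs the gene with the shorter merged exons gained on the other. Longer protein-coding genes in general had lower folds in A549 (Spearman rho -0.347) and H1975 (-0.385). The part of length in these ratios was not tested, nor how often other gene pairs shift the same way in all 3 lines. TSFM is the exchange factor that recharges TUFM, and its transcript was 3.24-fold, 1.93-fold and 1.90-fold scarcer relative to that of TUFM. SUPV3L1 to PNPT1 was higher in A549 (1.66) and HCC827 (1.91) and lower in H1975 (-0.47). GFM2, the ribosome recycling factor, against GFM1, the translocase, differed by 0.064, 0.90 and -1.12.

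**Figure D5:**
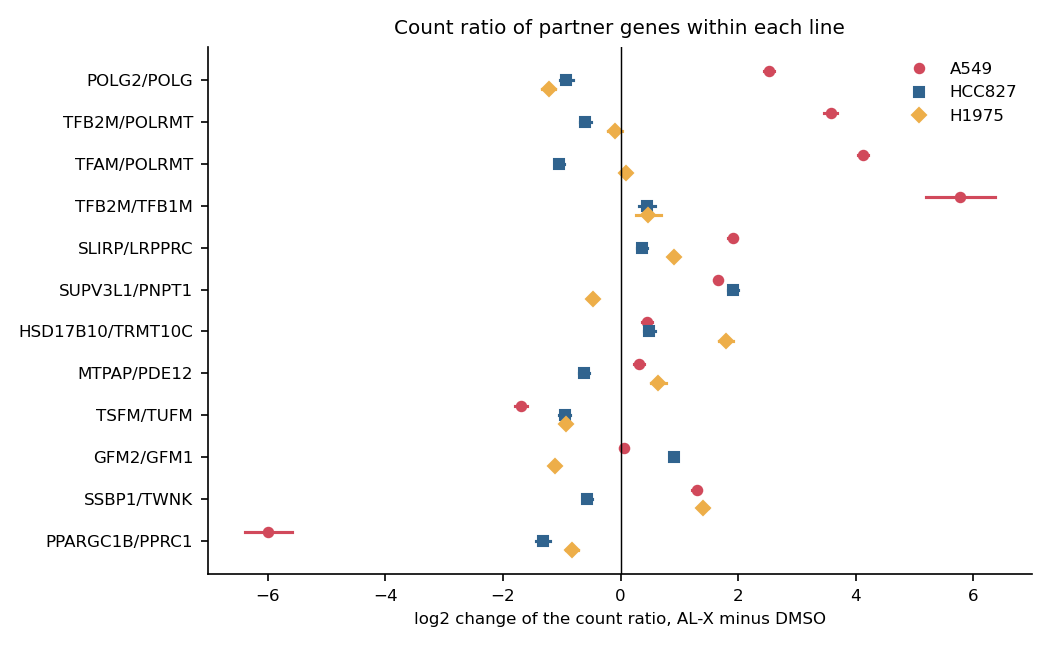
Log2 change, AL-X minus DMSO, of the count ratio of 12 partner pairs in each line, with bars for the 95% interval of counting error. TFB2M over POLRMT and TFAM over POLRMT lie at 3.57 and 4.12 in A549 and between -1.04 and 0.091 in the other lines.

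Of the 20 genes for RNA processing, stability and decay, 10 were at least 2-fold higher in A549 (30.1% of all genes considered were), none in HCC827 (10.7%) and 1 in H1975 (15.4%). Lower by as much were 2 in A549 (31.6%), 3 in HCC827 (17.3%) and 2 in H1975 (17.8%). FASTKD2 (ENSG00000118246, chromosome 2, 206765357 to 206792509), an RNA-binding protein of the mitochondrial RNA granule, had 41.5 and 14.1 CPM in A549, 48.2 and 17.8 in HCC827, and 25.9 and 15.3 in H1975. Every AL-X library lay under every DMSO library, at an across-line log2 fold of -1.26 (SE 0.51, adjusted p = 0.274), -1.05 without A549 and -1.68 with library totals. DDX28 (ENSG00000182810, chromosome 16, 68021274 to 68023442), a helicase of mitochondrial ribosome assembly, had 14.9 and 0.916 CPM in A549 (1842 and 62 counts), 20.5 and 16.0 in HCC827, and 19.5 and 2.39 in H1975. It was low in A549 and H1975 and nearly level in HCC827, with an across-line log2 fold of -2.53 (SE 0.85, edgeR adjusted p = 0.208, DESeq2 adjusted p = 0.0129) and -1.64 without A549. The opposite-strand gene DUS2 covers 22.5% of DDX28 and was lower too, from 1967 to 309 counts in A549 and 2238 to 1047 in H1975, against 2515 and 2516 in HCC827. Its part in the DDX28 counts was not tested.

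LRPPRC, which binds and stabilises mitochondrial mRNAs, had 316 and 368 CPM in A549, 344 and 232 in HCC827, and 201 and 225 in H1975, all within 2-fold. Its partner SLIRP had 18.1 and 78.8 CPM in A549, 21.8 and 19.0 in HCC827, and 24.9 and 52.3 in H1975 (across-line log2 fold 1.00, SE 0.57, adjusted p = 0.413, and 0.48 without A549). SLIRP overlaps the opposite-strand gene SNW1 over 4.5% of its exons, which went from 10312 to 49230 counts in A549. ANGEL2, an RNA phosphatase of the deadenylase family, with 38.9 and 20.4 CPM in A549, 21.2 and 36.7 in HCC827 and 30.9 and 17.9 in H1975, was the member with the second largest excess of HCC827 over the other lines (1.66, SE 1.20, adjusted p = 0.753), after DDX28 (3.16, SE 1.40, adjusted p = 0.50). Other FASTK proteins had other values. FASTKD5, which processes transcripts that end without a tRNA, had log2 folds of 2.33, 0.45 and -0.43 in A549, HCC827 and H1975, and TBRG4 (FASTKD4) 1.98, 0.13 and 0.82. FASTK, FASTKD1 and FASTKD3 stayed between -0.93 and 0.76.

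The degradosome helicase SUPV3L1 had 26.1 and 121 CPM in A549, 27.5 and 39.2 in HCC827 and 38.1 and 43.1 in H1975. Each AL-X library lay above every DMSO library under TMM, but the H1975 log2 fold of 0.18 became -0.23 with library totals. The ribonuclease PNPT1, partner of SUPV3L1, had log2 folds of 0.56, -1.40 and 0.65 in A549, HCC827 and H1975. For the tRNA-end processing enzymes, HSD17B10 was 1.82, -0.17 and 1.00, TRMT10C 1.37, -0.66 and -0.79 and ELAC2, which trims the 3′ side, -0.65, -1.07 and 0.58. The poly(A) polymerase MTPAP was 1.44, -0.67 and -0.37 and the poly(A)-removing PDE12 1.13, -0.055 and -1.01. The remaining genes of the group, REXO2, GRSF1 and DHX30, lay between -0.57 and 1.28.

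The across-line folds of the 7 translation factors, from -0.76 to 0.60, spanned the narrowest range of the 5 roles. TUFM had 198 and 497 CPM in A549, 252 and 183 in HCC827, and 203 and 381 in H1975 (across-line log2 fold 0.60, SE 0.60, adjusted p = 0.629). MTIF3, an initiation factor, had 12.9 and 6.15 CPM in A549, 15.4 and 13.6 in HCC827, and 14.5 and 7.19 in H1975 (-0.76, SE 0.61, adjusted p = 0.546). Its AL-X level was under the DMSO level in each line. The opposite-strand gene GTF3A covers 11.3% of the MTIF3 exons and had 6813 to 8583 counts. Its part in the MTIF3 counts was not tested. MTIF2, the other initiation factor, was at 0.050, 0.13 and 0.0015, and the release factor homolog MTRF1 at -0.79, -0.25 and -0.75. TSFM was at -0.37, -1.41 and -0.014, GFM1 at 0.94, -0.68 and 0.65 and GFM2 at 1.01, 0.22 and -0.47. TSFM shares 18.7% of its exons with the same-strand gene AC025165.3 and 9.8% with the opposite-strand gene AVIL. Their part in the TSFM counts was not tested.

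The across-line folds of the nuclear regulators, from -2.02 to 1.84 for the 5 of 6 tested, spanned the widest range of the 5 roles. GABPA (ENSG00000154727, chromosome 21, 25734570 to 25772460), the DNA-binding subunit of the GA-binding protein, had 33.7 and 316 CPM in A549, 37.1 and 43.9 in HCC827, and 23.1 and 94.1 in H1975. All 3 AL-X libraries lay above all DMSO libraries, with a small step in HCC827. The across-line log2 fold was 1.84 (SE 0.63, edgeR adjusted p = 0.211, DESeq2 adjusted p = 0.0494), 1.41 with library totals and 1.18 without A549, and HCC827 differed from the others by -2.38 (SE 1.11, edgeR adjusted p = 0.554). Its opposite-strand neighbour ATP5PF covers 7.6% of its exons and had 1749 to 5143 counts. NRF1 had 18.5 and 8.38 CPM in A549, 15.9 and 13.0 in HCC827 and 17.2 and 13.8 in H1975. Each NRF1 value with AL-X was under each with DMSO, but only A549 passed 2-fold (-1.14, across-line -0.59, SE 0.58, adjusted p = 0.622).

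The coactivators did not move together. PPARGC1A went from 3212 to 12 counts in A549, 26.0 to 0.177 CPM, a log2 fold of -7.06 (counting interval -8.15 to -6.39). It had 5 and 0 counts in HCC827 and 0 and 0 in H1975, where no fold can be given. PPARGC1B (ENSG00000155846, chromosome 5, 149730298 to 149855022) had 16.3 and 0.783 CPM in A549, 18.1 and 6.99 in HCC827, and 20.1 and 13.0 in H1975, with no overlap between treatments. Its across-line log2 fold was -2.02 (SE 0.83, adjusted p = 0.279), and -0.96 without A549. PPRC1, the remaining member of this family, had log2 folds of 1.61, -0.047 and 0.19 in the same order of lines. ESRRA, the nuclear receptor that PGC-1 proteins coactivate, was -1.17, 0.78 and 0.39.

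Genes of the same pathway outside the 48 were taken from 4 further lists. None of 32 genes for mitochondrial RNA modification and ribosome assembly, 20 for mitochondrial aminoacyl-tRNA synthetases and their partners, 15 for mtDNA precursors and repair, or the 8 tested of 10 other biogenesis regulators passed the across-line edgeR test. At unadjusted p under 0.05 there were 2 of 32, 1 of 20, 3 of 15 and 2 of 8, against 15.7% of all genes tested. Their across-line medians were -0.092, -0.32, 0.080 and 0.55. The extremes were PTCD1 (1.32, SE 0.47, adjusted p = 0.231) and HEMK1 (-1.81, SE 0.79, adjusted p = 0.30), HARS2 (0.65, SE 0.45) and PARS2 (-2.48, SE 1.15), and DGUOK (1.23, SE 0.50) and TK2 (-1.97, SE 0.66, adjusted p = 0.208). DGUOK and TK2 are both mitochondrial deoxynucleoside kinases, for purines and for pyrimidines. TK2 had 27.6 and 5.19 CPM in A549, 13.8 and 2.26 in HCC827 and 18.1 and 10.1 in H1975, and DGUOK 27.1 and 104, 16.2 and 28.6, and 22.4 and 42.8. In the regulators the deacetylase SIRT1 was highest (2.21, SE 0.62, adjusted p = 0.153) and PPARA lowest (-2.03, SE 0.84, adjusted p = 0.282). The synthetases held no gene at 2-fold or more higher in any line, against 30.1%, 10.7% and 15.4% of all genes. Lower were 7 of 20 in A549 (31.6% of all genes), 7 of 20 in HCC827 (17.3%) and 1 of 19 in H1975 (17.8%). By contrast 13 of 15 mitochondrial rRNA and mRNA genes passed the same test, all lower, with medians within the lines of -9.64, -5.61 and -7.86. With library totals, no filter or no block for the line, that test called 0 genes in the whole table.

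Across protein-coding genes longer genes had lower folds in A549 and H1975 (Spearman rho -0.347 and -0.385 over 9673 genes, and -0.0633 in HCC827). Over the members it was -0.137, 0.0593 and -0.119 in A549, H1975 and HCC827. The median exonic length of the members was 4240 bases, against 5392 for those protein-coding genes. With each fold taken relative to genes of its own length decile, the members had medians of 0.20, -0.16 and -0.31 in A549, HCC827 and H1975.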

How the data were processed

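Poly(A) RNA of 3 cell lines, each with DMSO and with AL-X, was sequenced to 98139178 to 126840915 counts per library. Per the labels' protocols, RNA was extracted with Trizol and an Agilent SureSelect XT HS2 mRNA library kit was used. Per the submitters' processing notes bcl2fastq 2.20 and build GRCh38 were used. Not given in the sources used here are the aligner, counter, annotation, strand setting and any collapsing of molecular barcodes. The deposited values are raw counts per Ensembl gene from the authors.

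Symbols were matched for 60401 of 60671 genes, and positions and merged exon lengths came from GENCODE release 29 on GRCh38. The across-line effect was tested with edgeR 4.0.16 (R 4.3.3, TMM, filterByExpr, robust quasi-likelihood test, Benjamini-Hochberg over 20344 genes). Libraries were paired by cell line, which the labels name, and the line was a block, leaving 2 residual degrees of freedom. The interaction for HCC827 left 1 and assumed that a lone line varies like the others. The 3 lines are the replicates, and the labels name 1 library per line and treatment without saying how many cultures it holds. With the line as a block, p-values rest on how the AL-X effect varied between lines, which includes the noise of single libraries. The variance of each gene is also drawn towards that of the other genes tested. The SE and p-value of a gene thus do not measure its own spread between lines alone. Nor do the p-values measure the spread between cultures of a line. SE is the fold over the root of its F value. Within a line, folds used a prior count of 2, a minimum of 5 CPM and exact binomial 95% intervals, which cover counting error only.

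The members and lists were chosen with earlier results of these data known. Values in all 6 libraries are given for members at unadjusted p under 0.05, at the ends of each role and of the HCC827 difference, and for 9 chosen for their roles; POLG2, SUPV3L1, TK2, DGUOK and the partner pairs were added after their values were seen. Alternatives were DESeq2 1.42.0, limma-voom 3.58.1, other scalings and filters, no block, and each line left out. The scripts were tested on simulated counts.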

Additional observations from a re-analysis of the deposited data

How the results depend on the processing

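No member passed the across-line test with DESeq2 size factors, library totals, mitochondrial genes left out, a filter of 1 CPM in 3 libraries, no filter at all, no robust shrinkage or limma-voom. DESeq2 called 2 members. Over all genes, edgeR called 52, against 0 with library totals, no filter or no block, 12 with mitochondrial genes left out, 661 by limma-voom, 1986 by DESeq2, and 106 to 184 with 1 line left out. At unadjusted p under 0.05 edgeR gave 1722 genes with no block, 2792 with library totals and 3352 with no filter. Leaving out 1 line gave 0 to 1 calls, the 1 being PPARGC1A without H1975. The libraries are paired by cell line, and without the replicate block 0 members were called. No member differed between HCC827 and the other lines with library totals or limma-voom either. With library totals the median log2 fold of the members was -0.57 in A549, a change of sign, -0.058 in HCC827 and -0.60 in H1975, and with length deciles 0.20 in A549 and -0.31 in H1975. With library totals the members at 2-fold were 8 higher and 20 lower in A549, and 15 in H1975 (1 higher, 14 lower). Apart from the prior count, TMM and library totals differ by 1 constant per line. Shares of all genes at 1.5-fold are not given here, so members cannot be set against all genes at that bar. At this lower bar there were 36 members in A549 (22 higher, 14 lower), 16 in HCC827 (3 higher, 13 lower) and 28 in H1975 (14 higher, 14 lower). DESeq2 size factors, mitochondrial genes left out, a prior count of 0.5 and a minimum of 1 CPM kept the 2-fold counts within 1.5 times and the medians, for the 2 scalings, within 0.1. Of the across-line folds of single named members, TFB2M turned from 0.34 to -0.058 with library totals. Leaving out A549 turned TFB2M to -0.37, TFAM to -0.49 and ANGEL2 to 0.047, leaving out HCC827 turned LRPPRC to 0.15 and TOP1MT to 0.20, and leaving out H1975 turned TEFM to 0.23; the cause was not tested. The across-line test had 2 residual degrees of freedom, and the folds within a line rest on 1 library pair. Depth limits TFB1M (25 counts), DDX28 (62), PPARGC1B (53) and PPARGC1A (12) in A549 with AL-X.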
